A study of Mus musculus with 24 samples.

Results

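The genes described here are 38 genes of red cell development, chosen by name: transcription factors of the erythroid programme, receptors, red cell membrane and blood group proteins, carbonic anhydrases, heme synthesis genes and beta-globins. All 38 were found among the 55487 genes of the count table of this RNA-seq series, which has 24 libraries from mouse LSK cells, the lineage-negative, Sca-1-positive, KIT-positive fraction that holds blood stem and early progenitor cells. The model carries the human leukemia fusion MLL::ENL (ME) under Tet-off control, and each of the 6 groups has 4 libraries, which the design text calls biological replicates. Newborn (P0) LSK cells were from liver, either wild-type (P0 WT) or with ME switched on during gestation, at E10.5 (P0 ME). Marrow LSK cells at P28 were wild-type (P28 WT), had ME induced at E10.5 (P28 E10.5 ME) or at birth (P28 P0 ME), or belonged to another E10.5-induced group whose label, RLT Vav Txp, is not spelled out. The day beside ME in the labels is read here as the age of induction. Strain, sex, the promoter that drives the transgene, pooling of animals and sequencing batch were not given in the sources used here, and the design text names the sorted cells as lineage-negative and KIT-positive. Because newborn cells were from liver and P28 cells from marrow, age and tissue cannot be told apart. Library totals ran from 31233688 to 89774511 counts.

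Levels are CPM, read counts scaled to a common library size with TMM factors. Differences are on the log2 scale, followed by ± and an SE. For edgeR, the SE was derived as the size of the difference divided by the square root of its F statistic. A gene is called where the edgeR quasi-likelihood test gives a Benjamini-Hochberg adjusted p under 0.05 over the 23059 genes that passed the filter on low counts. In bulk libraries, fewer cells of a type and less RNA per cell cannot be told apart.

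Red cells form from stem cells through progenitors that respond to erythropoietin, load iron through the transferrin receptor, and build heme in mitochondria while the globin genes are switched on. GATA1 and KLF1 bind GATA and CACCC-type sites at these genes, often with TAL1 and its partners. In the mouse beta-globin cluster, Hbb-y and Hbb-bh1 are transcribed in embryonic red cells, and Hbb-bs and Hbb-bt in fetal liver and adult marrow. The liver makes red cells before birth and the marrow after it, and LSK cells lie upstream of committed red cell precursors in both.

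The promoters below are shown because the results turn on these 5 genes. They are the 250 bases upstream of the RefSeq start (GRCm38.p6). Capitals mark 4 kinds of motif, searched on both strands. Sites for GATA factors were searched as AGATAA or TGATAA. The KLF1-type site was searched as CCNCNCCC. The remaining motifs were CCAAT, which nuclear factor Y binds, and the promoter box ATATAA.
Hbb-bs, chr7:103827929-103828178, minus strand: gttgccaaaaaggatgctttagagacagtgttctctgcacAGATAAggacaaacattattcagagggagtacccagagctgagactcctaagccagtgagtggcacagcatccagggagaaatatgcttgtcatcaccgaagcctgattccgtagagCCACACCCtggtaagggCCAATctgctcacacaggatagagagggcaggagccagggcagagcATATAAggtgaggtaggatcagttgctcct
Hbb-bt, chr7:103813924-103814173, minus strand: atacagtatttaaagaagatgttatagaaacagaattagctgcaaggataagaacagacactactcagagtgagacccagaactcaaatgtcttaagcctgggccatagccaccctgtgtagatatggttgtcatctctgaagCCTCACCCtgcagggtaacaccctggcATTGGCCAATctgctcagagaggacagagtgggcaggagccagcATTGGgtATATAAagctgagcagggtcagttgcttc
Hbb-y, chr7:103853208-103853457, minus strand: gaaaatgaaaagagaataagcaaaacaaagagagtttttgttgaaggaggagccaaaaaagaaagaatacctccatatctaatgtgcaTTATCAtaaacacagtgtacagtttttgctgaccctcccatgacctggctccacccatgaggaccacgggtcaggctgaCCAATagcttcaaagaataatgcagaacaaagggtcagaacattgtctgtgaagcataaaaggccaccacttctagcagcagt
Klf1, chr8:84901732-84901981, plus strand: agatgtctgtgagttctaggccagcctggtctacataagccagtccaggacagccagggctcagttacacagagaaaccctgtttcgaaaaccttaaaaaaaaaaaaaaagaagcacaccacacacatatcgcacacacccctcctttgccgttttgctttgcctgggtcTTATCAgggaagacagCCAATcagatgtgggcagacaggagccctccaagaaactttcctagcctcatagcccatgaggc
Alas2, chrX:150547167-150547416, plus strand: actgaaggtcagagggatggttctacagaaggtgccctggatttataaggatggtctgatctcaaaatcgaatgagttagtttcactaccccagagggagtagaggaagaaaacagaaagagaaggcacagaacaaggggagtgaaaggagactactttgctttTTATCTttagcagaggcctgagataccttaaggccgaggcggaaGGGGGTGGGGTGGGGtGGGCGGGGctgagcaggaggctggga
Hbb-bs carries all 4 kinds of motif. Hbb-bt has a KLF1-type match, CCAAT matches and the ATATAA box, but no AGATAA or TGATAA in this window. In Hbb-y the GATA match lies 162 to 157 bases before the start. No CCNCNCCC match was found there, but the shorter string CACCC, not put in capitals, lies 111 to 107 bases before the start. Klf1 has a GATA match 80 to 75 bases and a CCAAT match 64 to 60 bases before its start. It too has CACCC, 114 to 110 bases before the start, without a CCNCNCCC match. Alas2 has a GATA match 86 to 81 bases before its start and a cluster of KLF1-type matches closer to it, some of them overlapping. Promoter entries were found for 29 of the 38 genes, 34 windows in all since some genes have several starts. AGATAA or TGATAA was present in 17 of the 34 windows, and in 5452 of all 32851 mouse promoter windows of the same length (16.6%). CCNCNCCC was present in 20 of the 34 (58.8% against 45.9%), CCAAT in 16 (47.1% against 33.8%), and ATATAA in 2, Hbb-bs and Hbb-bt (5.88% against 9.1%). The shorter CACCC was present in 24 of the 34 (70.6% against 52.0%). A match is a string of letters, not a measured binding site.

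Of the 38 genes, 36 passed the filter. Icam4, a red cell adhesion molecule, had 0 counts in each library, and 100% of its exon bases are shared with the gene model Gm47079. Hbb-bh1 also fell below the filter: it reached 2.09 CPM in library 2 of P0 ME and was at 0 in P28 WT, P28 P0 ME and RLT Vav Txp. Ppox shares 17.5% of its exon bases with B4galt3 and Alas2 15.5% with Apex2 and Mir3620, and the strand setting of the counting was not given in the sources used here. Hbb-bs and Hbb-bt are near copies, with 53.2% of the 50-base words of Hbb-bs also found in Hbb-bt, so the split of reads between them is uncertain.

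Compared per kb of exon, levels differed widely within a group. In P28 WT, Car2, a carbonic anhydrase, stood highest at 685 ± 49.0 CPM per kb (SD, n = 4). Hbb-bt followed at 337 ± 56.1, Hbb-bs at 184 ± 33.2 and Nfe2, a factor of the erythroid and platelet lineages, at 165 ± 17.0 CPM per kb. Hbb-bs and Nfe2 differed by less than the SD of Hbb-bs. In P0 WT the order was Hbb-bs at 4910 ± 3340, Hbb-bt at 3210 ± 1860, Car2 at 485 ± 68.1 and Nfe2 at 121 ± 12.6 CPM per kb, and the globins differed by less than their SDs. In RLT Vav Txp, Hbb-bs stood at 795 ± 300, Car2 at 672 ± 51.0 and Car1, another carbonic anhydrase, at 454 ± 143 CPM per kb. In P28 P0 ME, Hbb-bs was sixth in the order, at 51.8 ± 11.6 CPM per kb.

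**Figure D1:**
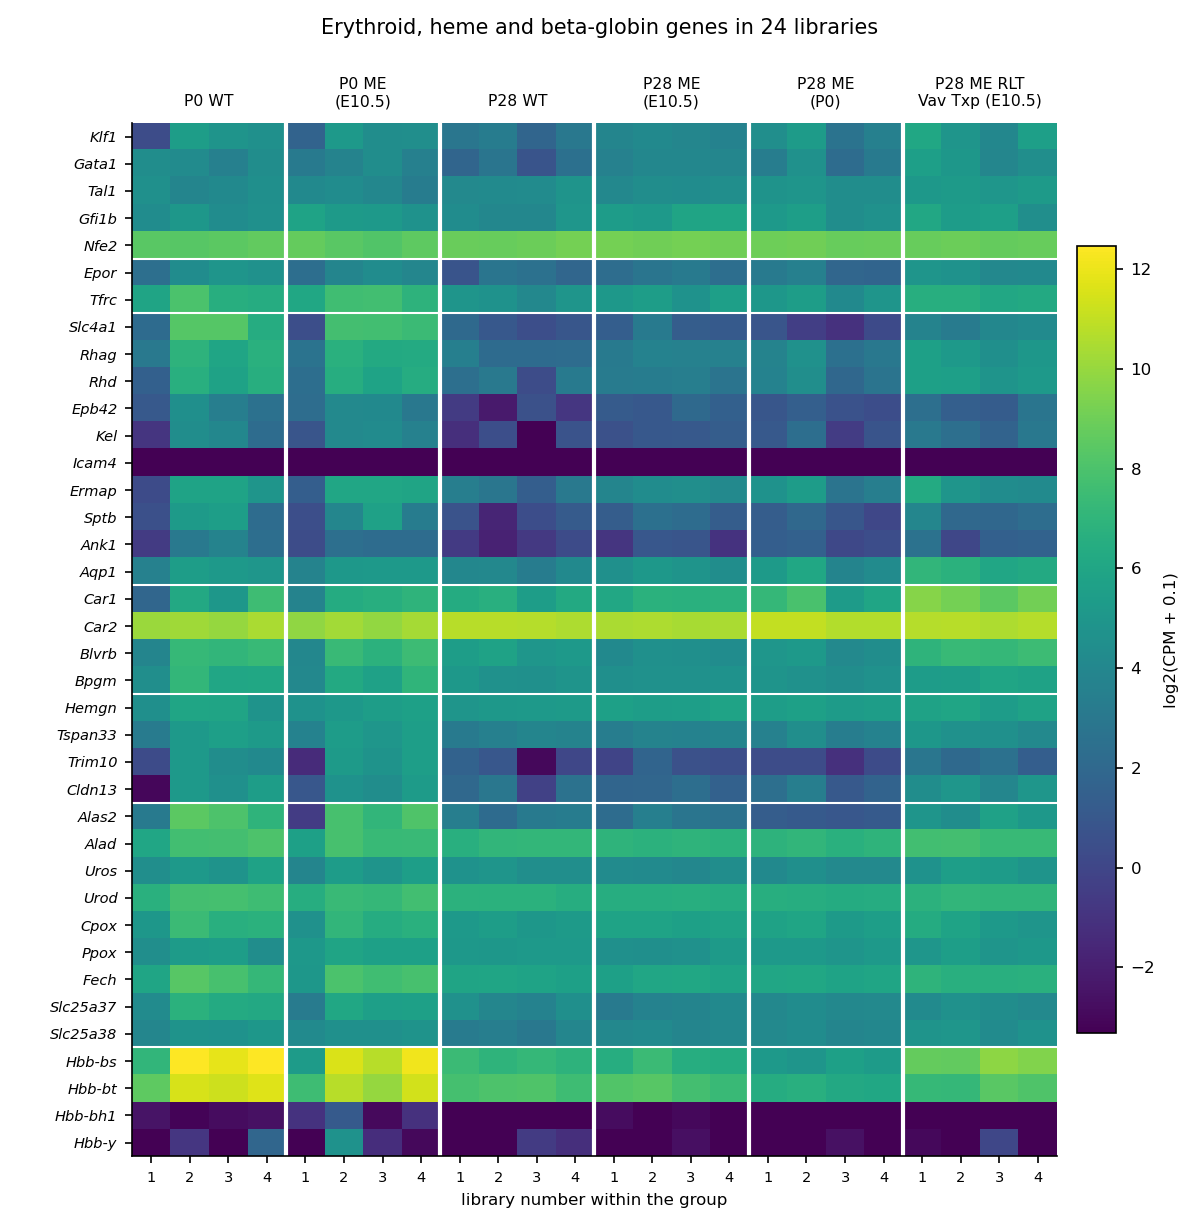
Level of each of the 38 genes, as log2(CPM + 0.1) in colour, in the 24 libraries, with sample groups across and gene roles down. Library 1 of both P0 groups is below the other 3 for 29 of the 38 genes, and the row of Icam4 is at 0 throughout.

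The P0 groups were uneven. For 29 of the 38 genes (76.3%), library 1 was the lowest of 4 in P0 WT and also in P0 ME, against 9.31% of the 23059 genes tested. Slc4a1, the band 3 anion exchanger of the red cell membrane, had 4.55 CPM in library 1 of P0 WT and 88.6 to 323 in the others. In P0 ME it had 1.3 CPM against 176 to 216. Alas2, the erythroid enzyme of the committed step of heme synthesis, had 8.51 CPM against 122 to 353 in P0 WT, and 0.588 against 137 to 283 in P0 ME. Klf1, the factor that activates adult beta-globin, had 1.19 CPM against 24.6 to 44.4 and 3.17 against 21.0 to 36.2. Other transcription factors did not follow in both groups. Gata1 had 21.5 CPM in library 1 of P0 WT and 11.5 to 21.1 in the others, but was lowest in library 1 of P0 ME, at 8.6 CPM against 11.9 to 21.3. Gfi1b, a repressor of the erythroid and platelet lineages, was lowest in library 1 of P0 WT (20.1 CPM against 20.8 to 32.2) and highest in library 1 of P0 ME (56.1 against 25.9 to 38.6). Nfe2 was lowest in library 1 of neither group, with 350 CPM against 327 to 415 in P0 WT and 420 against 288 to 369 in P0 ME.

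Markers of other cell types moved with these libraries. The summed level of 12 neutrophil and monocyte markers was 907 against 11500 to 18900 CPM in P0 WT (library 1 against the others) and 874 against 19800 to 38600 in P0 ME, with library 1 lowest in both groups for 11 of the 12. The sum of 12 macrophage markers was 225 against 1540 to 1580 CPM and 151 against 1350 to 1840. For 10 hepatocyte markers it was 219 against 370 to 639 and 229 against 492 to 775. The sum of 12 stem cell and LSK markers ran the other way, at 4520 against 2400 to 3140 CPM in P0 WT and 4970 against 2200 to 3320 in P0 ME. So did the sum of 10 megakaryocyte markers, at 695 against 340 to 590 CPM in P0 WT and 762 against 367 to 517 in P0 ME. Lymphoid markers summed to 220 against 344 to 429 CPM in P0 WT and 451 against 468 to 751 in P0 ME. Mast cell and basophil markers summed to 11200 against 961 to 2150 CPM in P0 WT and 50.6 against 222 to 864 in P0 ME. No gene of these lists was at or under 3 counts in every library. Kit, a gene of the sort, had 169 to 1450 CPM in P0 WT and 586 to 748 in P28 WT, and Ly6a, which codes for Sca-1, 86.4 to 228 and 267 to 337. Comparisons that use P0 are given with and without both libraries numbered 1, and the part of the other cell types in the results was not tested.

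**Figure D2:**
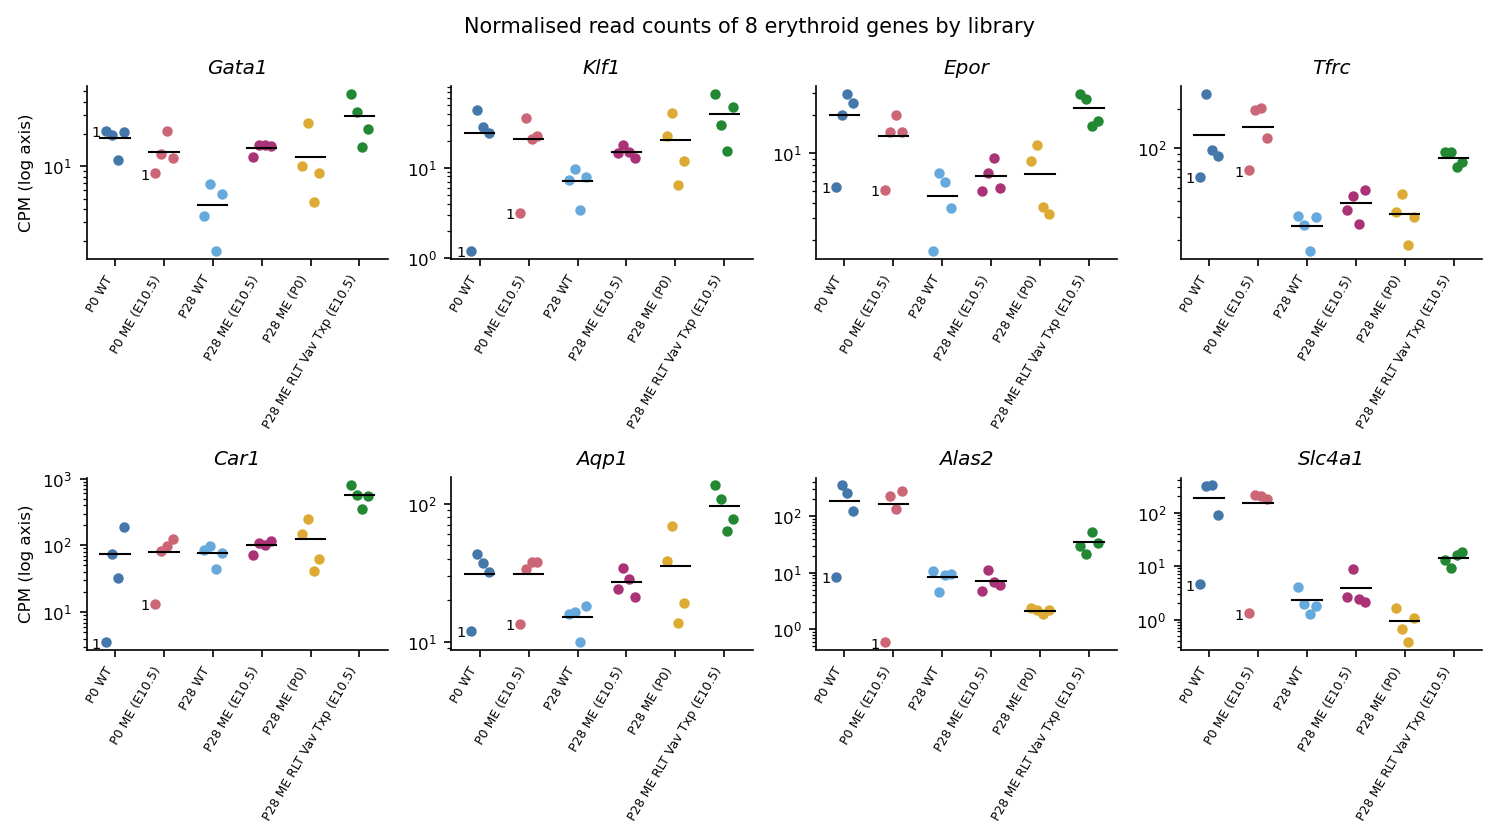
CPM on a log axis for 8 genes, with 1 point per library, a bar at the group mean and a small 1 beside library 1 of the P0 groups. For Klf1, Car1, Alas2 and Slc4a1, library 1 lies far below the other P0 libraries, and the RLT Vav Txp points lie above those of P28 WT for the genes shown.

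At P0, the question was whether ME altered these genes in newborn liver. None of the 36 genes tested was called by edgeR, which called 0.642% of all genes. An unadjusted p under 0.05 was found for 2 of them, Gfi1b and Ppox. DESeq2 (which called 3.48% of all genes) and limma (0.0564%) called 0 as well, and so did edgeR without the libraries numbered 1 (0.998%). Hbb-bs had 132, 5670, 3800 and 5480 CPM in wild-type and 41.2, 3040, 1720 and 4430 in ME libraries. Both groups spread widely and overlapped (-0.71 ± 0.86, edgeR adjusted p = 0.766), and without the libraries numbered 1 the difference was -0.70 ± 0.33, edgeR adjusted p = 0.272. Gata1 had 18.4 ± 4.7 CPM in wild-type and 13.7 ± 5.39 in ME (SD, n = 4), a difference of -0.42 ± 0.43, edgeR adjusted p = 0.716. Gfi1b was at 0.69 ± 0.31, edgeR adjusted p = 0.308, and at 0.39 ± 0.35, edgeR adjusted p = 0.613 without the libraries numbered 1. The median difference of the 36 genes was -0.10, beside -0.01 over all genes, and each of the 38 overlapped between the groups, where 3.74% of all genes did not.

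In wild-type cells, genes of the red cell membrane, heme synthesis and adult globin fell from P0 liver to P28 marrow: 21 of the 38 genes were lower at P28 and 2 higher. That is 60.5% of the 38, against 7.68% of all genes (lower, 4.56%). Groups that did not overlap were found for 5 lower and 2 higher genes, against 9.27% of all genes. Slc4a1 had 4.55, 318, 323 and 88.6 CPM in P0 WT and 4.11, 1.94, 1.27 and 1.79 in P28 WT. Each P28 library lay below each P0 library, and Slc4a1 fell by 6.35 ± 1.27, edgeR adjusted p = 0.00437. Hbb-bs had 175, 124, 147 and 119 CPM in P28 WT. Library 1 of P0 WT, at 132 CPM, lay within that range and the other 3 P0 libraries far above it, and Hbb-bs fell by 4.74 ± 1.00, edgeR adjusted p = 0.00645. Its neighbour Hbb-bt fell by 3.25 ± 0.63, edgeR adjusted p = 0.00313. Alas2, at 8.51 to 353 CPM in P0 WT and 4.53 to 10.7 in P28 WT, fell by 4.46 ± 1.09, edgeR adjusted p = 0.0166.

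Other membrane genes moved the same way. Sptb (beta-spectrin) fell by 4.10, Epb42 (protein 4.2) by 4.00, Kel (the Kell antigen) by 3.72, Rhag (the Rh-associated glycoprotein) by 3.54, Ank1 (ankyrin) by 3.52 and Rhd (the Rh antigen) by 3.43. Trim10, a gene of terminal red cell differentiation, fell by 3.76. Their adjusted p values ran from 0.000577 for Epb42 to 0.0469 for Trim10 (edgeR). Of these 7, Epb42 was called in each of 8 alternative fits and of 8 fits without a library. Trim10 was called in 3 and 1 of them, Rhd in 4 and 2, Kel in 4 and 4, and Sptb in 4 and 5. Calls lost with the replicate block included Alas2 (edgeR adjusted p = 0.0844), Sptb (0.0801), Kel (0.0581), Rhd (0.0548) and Trim10 (0.155). Tfrc, which imports iron-loaded transferrin, had 60.4, 259, 97.1 and 86.9 CPM in P0 WT and 30.4, 26.0, 16.6 and 29.9 in P28 WT. The groups did not overlap, and Tfrc fell by 2.29 ± 0.38, edgeR adjusted p = 0.000562. Epor, the erythropoietin receptor, fell by 2.16 ± 0.50, edgeR adjusted p = 0.00838. Gata1 had 21.5, 19.5, 11.5 and 21.1 CPM in P0 WT and 3.44, 6.9, 1.63 and 5.51 in P28 WT, again without overlap, and fell by 2.08 ± 0.45, edgeR adjusted p = 0.00497. Klf1, at 1.19 to 44.4 CPM in P0 WT and 3.42 to 9.8 in P28 WT, was not called (-1.80 ± 0.76, edgeR adjusted p = 0.165). The genes that rose were Car2 (0.50 ± 0.14, edgeR adjusted p = 0.0235) and Nfe2 (0.45 ± 0.13, edgeR adjusted p = 0.0261), both abundant in each library.

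Without both P0 libraries numbered 1, the wild-type comparison called 27 of the genes lower and 2 higher, against 11.7% of all genes. Klf1 was then called (-2.20 ± 0.49, edgeR adjusted p = 0.00383), and Slc4a1 was at -6.76 ± 0.63, edgeR adjusted p = 7.13e-07. With only the wild-type groups fitted, 10 genes were called, all lower, against 2.5% of all genes, and limma called 6, against 2.45%. In the fit of all groups the count fell to 14 without library 2 of P0 WT or library 2 of P28 WT, and to 15 without library 1 or 3 of P28 WT. Beside these genes, 8 of 12 neutrophil and monocyte, 8 of 12 macrophage and 6 of 10 hepatocyte markers were called lower at P28. So were 6 of 10 mast cell and basophil markers and 7 of 11 lymphoid markers tested, while 2 lymphoid markers were called higher. The part of these cell types in the result was not tested.

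In E10.5-induced ME, P28 against P0 gave 17 genes lower and 1 higher, 47.4% of the 38, where 18.2% of all genes were called (lower, 8.45%). The 14 genes lower here and in wild-type were Alas2, Bpgm, Epb42, Fech, Hbb-bs, Hbb-bt, Rhag, Rhd, Slc25a37, Slc4a1, Tfrc, Trim10, Tspan33 and Urod. Slc4a1 had 1.3, 216, 204 and 176 CPM in P0 ME and 2.59, 8.62, 2.47 and 2.1 in P28 E10.5 ME. Library 1 of P0 ME lay below each P28 library and the other 3 far above, and Slc4a1 fell by 5.23 ± 1.20, edgeR adjusted p = 0.00547. Alas2 fell by 4.50 ± 1.09, edgeR adjusted p = 0.00804 and Hbb-bs by 4.38 ± 0.99, edgeR adjusted p = 0.0049. Blvrb, a biliverdin reductase of red cells, fell by 2.46 ± 0.59, edgeR adjusted p = 0.00676. Tfrc had 67.9, 194, 202 and 120 CPM in P0 ME and 34.2, 43.4, 26.6 and 48.1 in P28 E10.5 ME, without overlap, and fell by 1.94 ± 0.38, edgeR adjusted p = 0.00116. Nfe2 rose by 0.63 ± 0.13, edgeR adjusted p = 0.00118. Gata1 showed no such gap: it had 8.6, 13.1, 21.3 and 11.9 CPM in P0 ME and 12.3, 15.7, 15.9 and 15.4 in P28 E10.5 ME (0.11 ± 0.43, edgeR adjusted p = 0.895). Klf1 was at -0.46 ± 0.74, edgeR adjusted p = 0.715 and Epor at -1.06 ± 0.49, edgeR adjusted p = 0.134.

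Without both P0 libraries numbered 1, 27 genes were lower and 1 higher in ME, against 21.4% of all genes. Epor was then called (-1.33 ± 0.42, edgeR adjusted p = 0.0257). Klf1 (-0.81 ± 0.48, edgeR adjusted p = 0.234) and Gata1 (-0.06 ± 0.47, edgeR adjusted p = 0.951) were still not called. With only these groups fitted 17 genes were lower and 1 higher, against 26.8%. The count in the fit of all groups fell to 11 without library 2 of P0 ME and to 10 without library 1 of P28 E10.5 ME. The P0 and P28 ranges were apart for 3 lower and 2 higher genes, against 25.4% of all genes. Here 12 of 12 neutrophil and monocyte, 10 of 12 macrophage and 10 of 10 hepatocyte markers were called lower at P28. So were 6 of 10 mast cell and basophil markers and 7 of 11 lymphoid markers tested, while 1 lymphoid marker was called higher. Their part in the result was not tested.

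**Figure D3:**
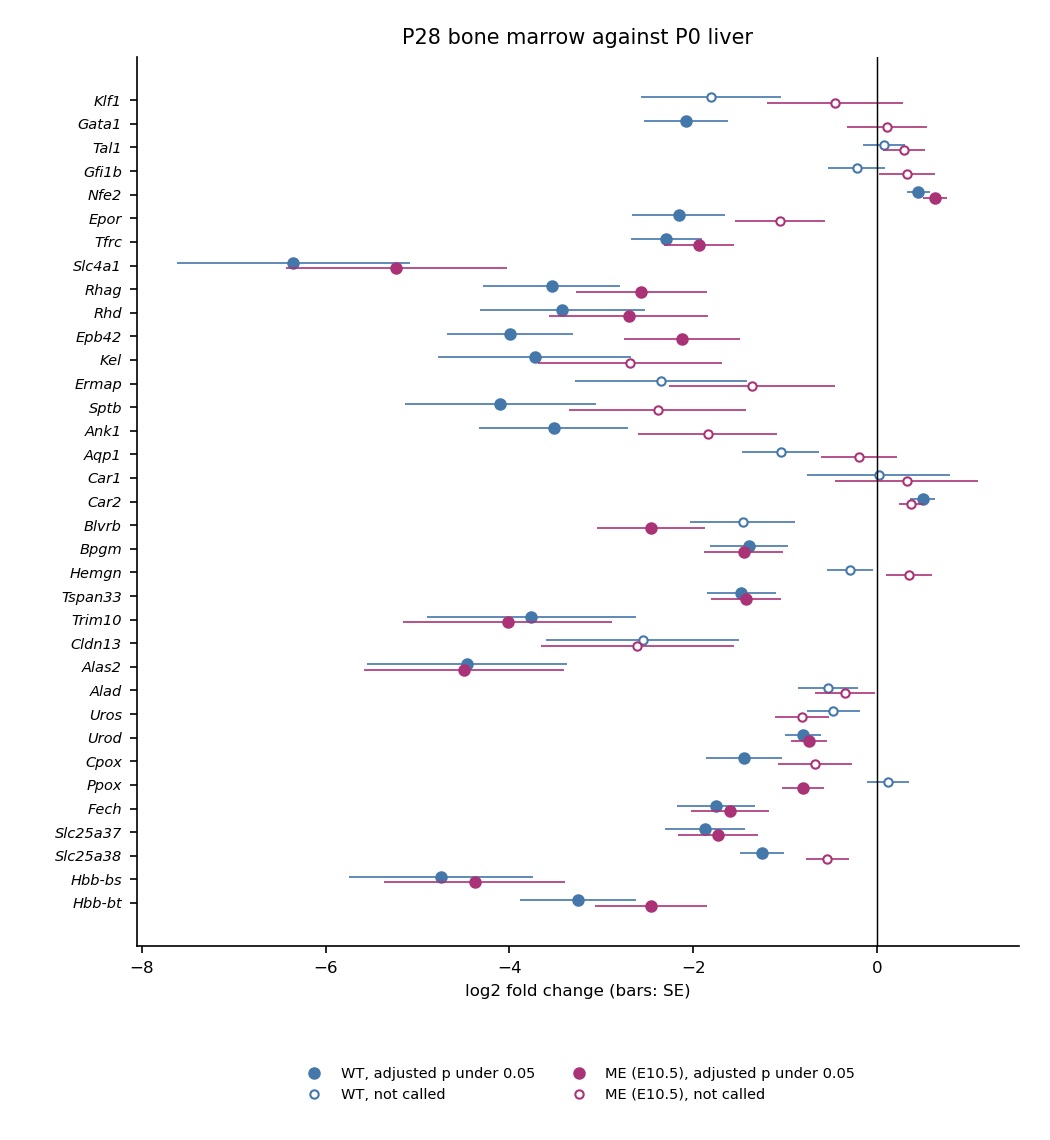
Difference between P28 marrow and P0 liver on the log2 scale for 35 genes, in wild-type and in E10.5-induced ME, with bars for the SE and filled points where the edgeR adjusted p was under 0.05. Most points lie left of 0, with Slc4a1 at -6.35 and -5.23, while Nfe2 and Car2 lie to the right in both.

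At P28, E10.5-induced ME was set against wild-type marrow. Gata1, Gfi1b and Epb42 rose and none of the 38 genes fell, a share of 7.89% where 12.3% of all genes were called (higher, 7.82%). Gata1 had 3.44, 6.9, 1.63 and 5.51 CPM in wild-type and 12.3, 15.7, 15.9 and 15.4 in ME. Each ME library lay above each wild-type library, and Gata1 rose by 1.77 ± 0.45, edgeR adjusted p = 0.0123. Gfi1b had 20.1, 15.9, 16.1 and 31.4 CPM in wild-type and 41.7, 34.9, 59.5 and 61.0 in ME, without overlap, and rose by 1.24 ± 0.31, edgeR adjusted p = 0.012. Epb42 was low in both groups, with 0.559, 0.123, 1.4 and 0.464 CPM in wild-type and 2.2, 1.91, 4.18 and 2.79 in ME, and rose by 2.09 ± 0.64, edgeR adjusted p = 0.0324. Groups that did not overlap were found for 9 higher and 3 lower genes of the 38, against 28.2% of all genes.

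Adult beta-globin, Alas2 and Slc4a1 did not pass the test. Hbb-bs had 93.4, 177, 91.9 and 82.2 CPM in P28 E10.5 ME, overlapping the wild-type range of 119 to 175 (-0.34 ± 0.86, edgeR adjusted p = 0.845). Alas2 ran from 4.73 to 11.2 CPM against 4.53 to 10.7 in wild-type (-0.23 ± 0.96, edgeR adjusted p = 0.913), and Slc4a1 was at 0.82 ± 1.05, edgeR adjusted p = 0.668. Klf1 had 14.6, 18.1, 14.9 and 12.8 CPM against 7.27, 9.8, 3.42 and 7.82. Its groups did not overlap, but it was not called in the fit of all groups (1.10 ± 0.75, edgeR adjusted p = 0.373). With only these groups fitted, 8 of the genes were higher and 4 lower, against 34.0% of all genes. In that fit Klf1 was at 1.02 ± 0.28, edgeR adjusted p = 0.0114, and Blvrb, which had 17.9 to 24.6 CPM in ME and 30.8 to 54.5 in wild-type, was at -1.03 ± 0.18, edgeR adjusted p = 0.000547. In the fit of all groups the 3 calls were lost without library 1 of P28 WT, and 1 was left without library 2 of P28 WT. Over the 8 fits without a library, Gata1 was called in 7, Gfi1b in 6 and Epb42 in 3. Neutrophil and monocyte markers summed to 1040 to 1860 CPM in ME and 739 to 974 in wild-type, and lymphoid markers to 841 to 1010 and 505 to 715. None of the 12 neutrophil and monocyte markers or the 11 lymphoid markers tested was called in either direction. Their part in the result was not tested.

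Other genes of the pathway were read from lists. Of 18 partners and cofactors of the erythroid factors, 8 were called higher and 0 lower in P28 E10.5 ME against wild-type, with a median difference of 0.54 beside -0.10 over all genes. The shares over all genes were 7.82% higher and 4.44% lower. Among the partners called higher were Tcf3, an E protein that pairs with TAL1 (0.98 ± 0.23, edgeR adjusted p = 0.00722), and Rcor1, a corepressor that works with GFI1B (0.87 ± 0.20, edgeR adjusted p = 0.00683). Of 10 genes of erythropoietin signalling, 3 were called higher: Jak2, the kinase bound to the receptor (0.74 ± 0.20, edgeR adjusted p = 0.0176), Stat5a (0.75 ± 0.19, edgeR adjusted p = 0.0127) and Stat5b (0.88 ± 0.27, edgeR adjusted p = 0.0343), the factors it activates. Epor itself was not called (0.54 ± 0.49, edgeR adjusted p = 0.517). Of 17 other red cell membrane genes, 4 were higher and 0 lower, with Tmod1, which caps actin filaments, at 3.97 ± 1.15, edgeR adjusted p = 0.0245. Of 20 other heme and iron genes 1 was higher and 1 lower, and of 5 alpha-type globin genes tested 0 were called in either direction.

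Whether the ME effect differed between P28 and P0 was tested as the difference of both contrasts. None of the 36 genes was called by edgeR, which called 0.72% of all genes, and 4 had an unadjusted p under 0.05 (Gata1, Epb42, Ppox and Slc25a38). DESeq2 called Gata1 alone (2.09 ± 0.62, DESeq2 adjusted p = 0.0314), where it called 3.39% of all genes, and limma called 0 of the 36, against 0.147%. By edgeR the difference for Gata1 was 2.19 ± 0.62, edgeR adjusted p = 0.083, and 1.94 ± 0.67, edgeR adjusted p = 0.124 without both P0 libraries numbered 1, a fit that called 0.973% of all genes. For Hbb-bs it was 0.37 ± 1.21, edgeR adjusted p = 0.92. In the fit of all groups, leaving out library 4 of P0 WT brought the count to 1.

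After induction of ME at P0, the adult globins and Alas2 stood below wild-type at P28 in each library, though the fit of all groups called none of the 36 genes, against 1.57% of all genes. Hbb-bs had 36.3, 30.3, 51.3 and 41.4 CPM in P28 P0 ME against 175, 124, 147 and 119 in wild-type. Hbb-bt had 88.5, 100, 73.1 and 68.3 CPM against 225, 264, 273 and 187. Alas2 had 2.39, 2.15, 1.89 and 2.15 CPM against 10.7, 4.53, 8.99 and 9.62. For these 3 genes every ME library lay below every wild-type library, and Hemgn, a nuclear protein of blood progenitors, was the 1 gene of the 38 that lay above. Groups that did not overlap were thus found for 1 higher and 3 lower genes of the 38, a smaller share than the 24.8% over all genes. In the fit of all groups, whose spread includes the P0 libraries, Hbb-bs was at -1.82 ± 0.89, edgeR adjusted p = 0.257, Hbb-bt at -1.52 ± 0.59, edgeR adjusted p = 0.152 and Alas2 at -1.98 ± 1.01, edgeR adjusted p = 0.281. An unadjusted p under 0.05 was found for 6 genes. With only these groups fitted, 1 gene was called higher and 6 lower of the 38, also a smaller share than the 27.9% over all genes. Hbb-bs was then at -1.88 ± 0.16, edgeR adjusted p = 6.32e-06, Hbb-bt at -1.57 ± 0.14, edgeR adjusted p = 6.64e-06 and Alas2 at -2.04 ± 0.30, edgeR adjusted p = 0.000252. DESeq2 on all groups called Gata1 (1.43 ± 0.44, DESeq2 adjusted p = 0.0199) and Aqp1 (1.16 ± 0.41, DESeq2 adjusted p = 0.0415) higher and Hbb-bt (-1.58 ± 0.58, DESeq2 adjusted p = 0.0493) lower, against 8.12% of all genes, and limma called 1 gene higher, against 20.7%.

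Among the P28 P0 ME libraries, library 2 was the highest for 28 of the 38 genes (73.7%), against 23.7% of the 23059 genes tested. It had the highest Klf1, at 41.0 CPM against 6.5 to 22.3 in the others, Gata1 (25.5 against 4.61 to 10.1 CPM) and Car1, a carbonic anhydrase of early erythroid progenitors (246 against 40.7 to 147 CPM). Aqp1, the water channel of red cells (69.1 against 13.7 to 38.3 CPM), Rhag (25.5 against 5.63 to 13.5 CPM) and Hbb-bt (100 against 68.3 to 88.5 CPM) were highest there too. Hbb-bs, in contrast, was lowest in library 2, at 30.3 CPM against 36.3 to 51.3. Library 2 was picked out after its values were seen. By edgeR on all groups, Gata1 was not called against wild-type (1.49 ± 0.45, edgeR adjusted p = 0.0685). The sum of 12 macrophage markers was 67.3 to 89.7 CPM in P28 P0 ME and 94.5 to 140 in wild-type, and its part in the lower globin levels was not tested.

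Set against P28 E10.5 ME, P28 P0 ME gave no call among the 36 genes by edgeR, which called 0.0477% of all genes. An unadjusted p under 0.05 was found for 2, Car2 and Hbb-bt. DESeq2 called 0 of the 36, against 0.399% of all genes, and limma 1 in each direction, against 7.36%. With only these groups fitted, Car2 was called higher and Alas2, Hbb-bs and Hbb-bt lower, against 6.35% of all genes. Hbb-bt had 295, 335, 219 and 167 CPM after E10.5 induction, each above the 68.3 to 100 after P0 induction. Its difference was -1.62 ± 0.59, edgeR adjusted p = 0.959 with all groups and -1.56 ± 0.22, edgeR adjusted p = 0.00887 with these alone. Groups that did not overlap were found for 1 higher and 5 lower genes of the 38, against 11.8% of all genes. The comparisons at P28 share libraries, so their values stand side by side only.

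In the RLT Vav Txp group, genes of most roles among the 38 stood above wild-type. Gata1, Gfi1b, Epor, Tfrc, Epb42, Aqp1 and Slc25a38 rose and none fell, 18.4% of the 38 where 4.12% of all genes were called (higher, 2.64%). Aqp1 had 136, 108, 63.7 and 77.5 CPM against 15.8, 16.5, 9.89 and 18.0 in wild-type, and rose by 2.68 ± 0.44, edgeR adjusted p = 0.000566. Gata1 had 47.5, 32.2, 15.3 and 22.5 CPM against 1.63 to 6.9, and rose by 2.75 ± 0.47, edgeR adjusted p = 0.00058. Epor had 29.6, 26.8, 16.4 and 18.0 CPM against 1.65, 6.9, 5.88 and 3.63, and rose by 2.33 ± 0.51, edgeR adjusted p = 0.00632. In these 3 genes each RLT Vav Txp library lay above each wild-type library. Tfrc had 94.4, 93.8, 72.0 and 78.6 CPM against 16.6 to 30.4, and rose by 1.72 ± 0.38, edgeR adjusted p = 0.00747. Slc25a38, the mitochondrial glycine carrier for heme synthesis, had 28.7, 31.0, 19.5 and 26.6 CPM against 9.23, 10.8, 8.0 and 15.2, and rose by 1.29 ± 0.24, edgeR adjusted p = 0.00143. These groups were apart as well. Epb42 rose by 2.73 ± 0.65, edgeR adjusted p = 0.0134 and Gfi1b by 1.14 ± 0.31, edgeR adjusted p = 0.035. Gfi1b overlapped between the groups, and its call was lost with limma (adjusted p = 0.157), with only these groups fitted (edgeR adjusted p = 0.0541) and without the filter (edgeR adjusted p = 0.0537). Epb42 was not called with limma (adjusted p = 0.0634). Over the 8 fits without a library, Epb42 was called in 4 and Gfi1b in 2. Gata1, Aqp1, Epor, Tfrc and Slc25a38 were called in each of them.

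Groups that did not overlap, all higher in RLT Vav Txp, were found for 25 of the 38 genes, against 11.5% of all genes in either direction. Car1 had 792, 565, 356 and 551 CPM against 84.2, 99.1, 43.9 and 77.1 in wild-type, but missed the threshold in the fit of all groups (2.90 ± 0.83, edgeR adjusted p = 0.0589). Klf1 had 66.5, 29.9, 15.5 and 47.9 CPM (2.50 ± 0.78, edgeR adjusted p = 0.082) and Hbb-bs 430, 407, 879 and 727 CPM (2.12 ± 0.89, edgeR adjusted p = 0.249). Slc4a1 had 13.1, 9.24, 15.9 and 18.5 CPM (2.66 ± 1.09, edgeR adjusted p = 0.229). Each of these libraries lay above those of wild-type. With only these groups fitted, 22 genes were called, all higher, against 6.22% of all genes, and DESeq2 called 15, against 7.13%. Among the 22 were Car1 (2.88 ± 0.28, edgeR adjusted p = 9.24e-05), Hbb-bs (2.11 ± 0.25, edgeR adjusted p = 0.00023) and Alas2 (2.02 ± 0.32, edgeR adjusted p = 0.0012). Slc4a1 and Hbb-bs stayed below the 6 P0 libraries numbered 2 to 4, while Car1 in each RLT Vav Txp library was above its highest P0 value of 190 CPM. RLT Vav Txp was not tested against P0.

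**Figure D4:**
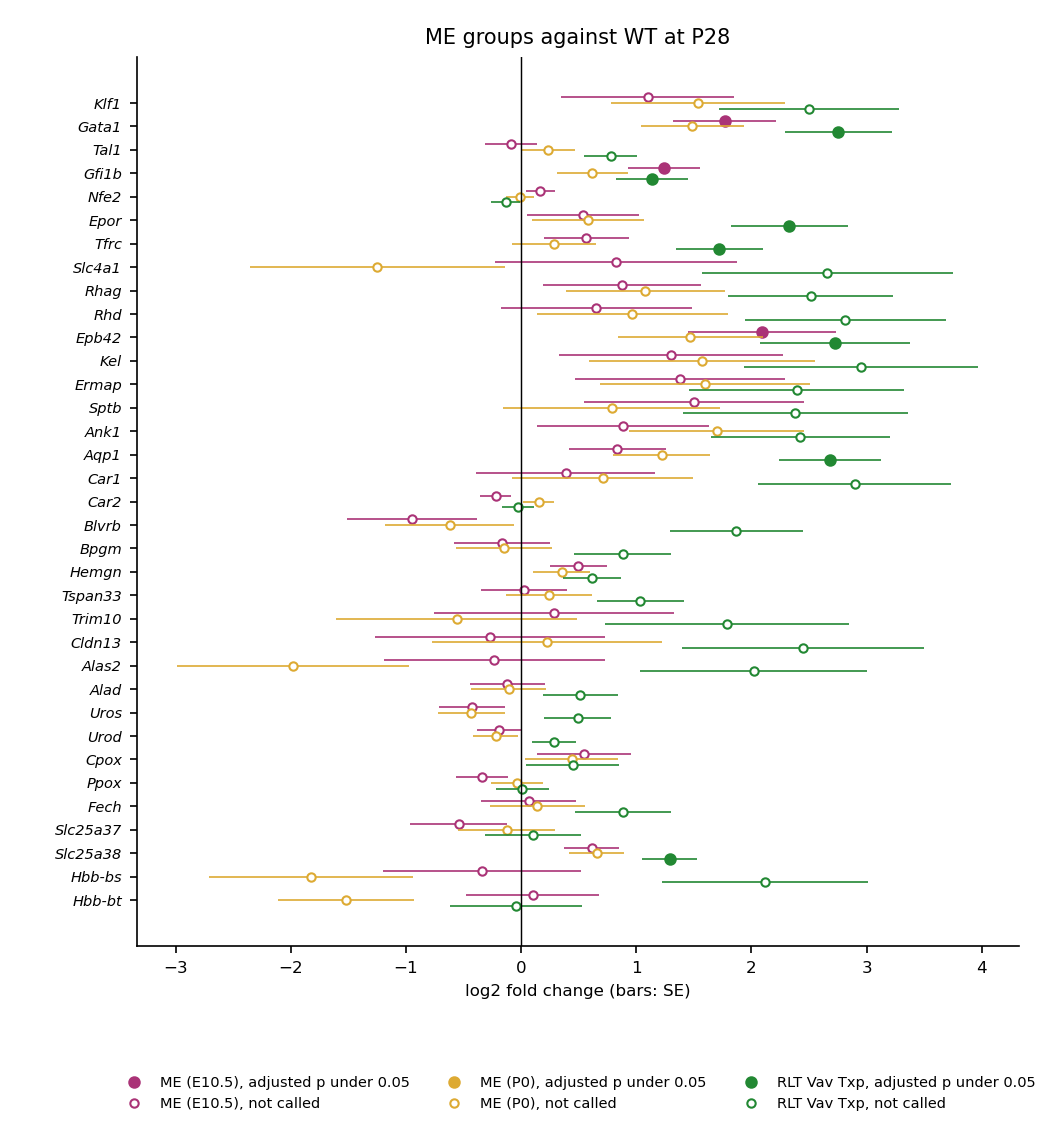
Difference from P28 WT on the log2 scale for 35 genes in P28 E10.5 ME, P28 P0 ME and RLT Vav Txp, with bars for the SE and filled points where the edgeR adjusted p was under 0.05. The 3 comparisons share the wild-type libraries. RLT Vav Txp points lie right of 0 for most genes, and the P28 P0 ME points of Alas2, Hbb-bs and Hbb-bt lie left of 0 at -1.98, -1.82 and -1.52.

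Against P28 E10.5 ME, RLT Vav Txp had 8 genes called higher and 0 lower, 21.1% of the 38 beside 17.9% of all genes (higher, 8.5%; lower, 9.38%). They were Tal1, Epor, Tfrc, Aqp1, Car1, Blvrb, Uros and Slc25a38. Blvrb had 122, 161, 146 and 178 CPM against 17.9, 24.6, 22.9 and 20.5, without overlap, and rose by 2.82 ± 0.60, edgeR adjusted p = 0.00365. Tal1, a partner of GATA1, had 34.0, 39.3, 31.1 and 39.6 CPM against 16.6 to 21.8, and rose by 0.86 ± 0.23, edgeR adjusted p = 0.0117. Car1 rose by 2.51 ± 0.82, edgeR adjusted p = 0.0411, Aqp1 by 1.84 ± 0.43, edgeR adjusted p = 0.00524 and Epor by 1.79 ± 0.50, edgeR adjusted p = 0.0148. Gata1 was not called (0.99 ± 0.44, edgeR adjusted p = 0.121). Nfe2, with 431 to 492 CPM against 525 to 576, was the 1 gene whose RLT Vav Txp libraries all lay lower, and it was not called (-0.30 ± 0.13, edgeR adjusted p = 0.1). Ranges were also apart for 20 higher genes beside it, against 25.7% of all genes. The count of 8 became 2 without library 1 of P28 E10.5 ME, 4 without its library 2 or 3 or library 2 of RLT Vav Txp, and 5 without library 1, 3 or 4 of RLT Vav Txp. By gene, Blvrb and Aqp1 were called in each of 8 fits without a library, Epor and Tal1 in 7 and Uros in 3. Tfrc and Slc25a38 were called in 1 of these fits and Car1 in 0. The calls of Car1, Tfrc and Slc25a38 were also lost without the filter (edgeR adjusted p = 0.0747, 0.0933 and 0.0874). With only these groups fitted 24 genes were called, all higher, against 31.6% of all genes, and DESeq2 called 16, against 22.8%.

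Markers of other cells differed in this group too. The sum of 12 macrophage markers was 829 to 3310 CPM in RLT Vav Txp, 94.5 to 140 in P28 WT and 65.8 to 100 in P28 E10.5 ME. Of the 12, 10 were called higher against wild-type and 12 against P28 E10.5 ME, where 2.64% and 8.5% of all genes were. Of 8 megakaryocyte markers tested, 4 and 4 were called higher, with Pf4, a platelet chemokine, at 3.18 ± 0.47, edgeR adjusted p = 0.000177 against wild-type. Neutrophil and monocyte markers summed to 2220 to 7190 CPM, against 739 to 974 in wild-type, and lymphoid markers to 1260 to 6110, against 505 to 715. Of 12 neutrophil and monocyte markers 0 were called against wild-type, and of 11 lymphoid markers tested 1 was called higher and 0 lower. Against P28 E10.5 ME, 1 and 5 were called higher, and 0 and 1 lower. Mast cell and basophil markers summed to 98.6 to 226 CPM, against 7.91 to 44.8 in wild-type and 19.2 to 35.5 in P28 E10.5 ME. Of these 10 markers, 1 was called higher against wild-type and 4 against P28 E10.5 ME, and 0 lower in either comparison. The stem cell and LSK sum was 2220 to 3050 CPM, below the 4320 to 4830 of wild-type. Its 12 genes did not move as a set: 1 was called higher and 3 lower against wild-type. Against P28 E10.5 ME, 4 of them were called higher and 4 lower. Of 20 other heme and iron genes, 5 were called higher and 0 lower against wild-type, among them Slc40a1, the iron exporter (3.91 ± 0.75, edgeR adjusted p = 0.00388), and Hmox1, which breaks down heme (3.21 ± 0.71, edgeR adjusted p = 0.0116). Macrophages are known to make both. Of the 18 factor partners, 0 were called higher and 6 lower against P28 E10.5 ME, where 9.38% of all genes were lower. Against wild-type, 0 of these 18 were higher and 1 lower, where 2.64% and 1.48% of all genes were. Of 17 other red cell membrane genes, 1 was higher and 1 lower against wild-type, and 1 and 3 against P28 E10.5 ME. Of 10 genes of erythropoietin signalling, 0 were called against wild-type, and 0 higher and 2 lower against P28 E10.5 ME. Of 15 late red cell maturation genes, 2 were higher and 0 lower against wild-type, and 1 and 3 against P28 E10.5 ME. Of 10 genes that time globin switching, 1 was higher and 1 lower against wild-type, and 1 higher and 4 lower against P28 E10.5 ME. Their median difference from P28 E10.5 ME was -0.506, beside 0.115 over all genes. Sox6, a repressor of embryonic globin, was higher (3.45 ± 0.54, edgeR adjusted p = 0.000148). The part of these other cells in the levels of the red cell genes was not tested.

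The proportion of the adult beta-globins differed between libraries. The ratio of Hbb-bs to Hbb-bt counts was 1.55 to 1.96 in the 6 P0 libraries numbered 2 to 4, but 0.359 in library 1 of P0 WT and 0.214 in library 1 of P0 ME. It was 0.469 to 0.775 in P28 WT, 0.317 to 0.527 in P28 E10.5 ME and 0.303 to 0.701 in P28 P0 ME, ranges that overlap. In RLT Vav Txp it was 2.57 to 2.87, above the other 20 libraries. The ratio did not follow the summed level of both genes: library 1 of P0 WT, at 500 CPM, and library 2 of RLT Vav Txp, at 554 CPM, had 0.359 and 2.76. Hbb-bt had 150, 147, 342 and 280 CPM in RLT Vav Txp, around the 187 to 273 of wild-type (-0.05 ± 0.58, edgeR adjusted p = 0.99). These ratios are descriptions without a test, and they depend on how reads that match both genes were counted. Both genes lie on the minus strand of chromosome 7 (GRCm38), Hbb-bs (ENSMUSG00000052305) at 103826534 to 103828096 and Hbb-bt (ENSMUSG00000073940) at 103812524 to 103813996.

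**Figure D5:**
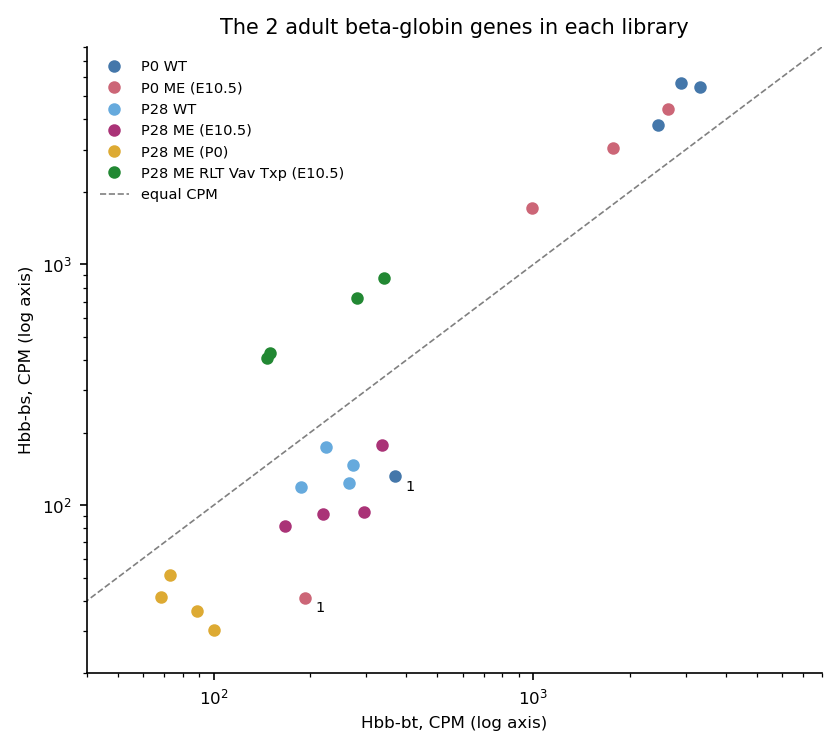
CPM of Hbb-bs against Hbb-bt in the 24 libraries, both on log axes, with a dashed line at equal CPM and a small 1 beside library 1 of the P0 groups. RLT Vav Txp and 6 P0 libraries lie on the Hbb-bs side of the line, and the other P28 libraries and both P0 libraries numbered 1 on the Hbb-bt side.

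Alpha-globin, whose chains pair with beta-globin in hemoglobin, is outside the 38 genes and was read beside them. Hba-a1 had 80.4, 5050, 3920 and 5010 CPM in P0 WT and 118, 68.4, 102 and 87.9 in P28 WT, and fell by 5.23 ± 1.12, edgeR adjusted p = 0.00688. It had 30.7, 19.7, 26.7 and 32.5 CPM in P28 P0 ME, each below the 4 wild-type libraries, and 314, 290, 608 and 425 in RLT Vav Txp, each above. The ratio of summed alpha to summed adult beta CPM was 0.804 to 1.07 in the 6 P0 libraries numbered 2 to 4, 0.283 in library 1 of P0 WT and 0.117 in library 1 of P0 ME. It was 0.335 to 0.533 in P28 WT, 0.251 to 0.478 in P28 P0 ME and 0.726 to 0.887 in RLT Vav Txp. Hba-a1 and its copy Hba-a2 share 72.3% of the 50-base words of Hba-a1.

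Embryonic globin was rare in all groups. Hbb-y had 26.3 CPM in library 2 of P0 ME and 3.57 in library 4 of P0 WT, and under 1 CPM in the other 22 libraries. Hbb-y and Hbb-bh1 together made up 0.586% of beta-globin counts in library 2 of P0 ME (1679 of 286481, exact 95% interval 0.558 to 0.615%). In the other P0 ME libraries the share was 0.172% in library 1, 0.0132% in library 3 and 0.00559% in library 4, and in P0 WT 0.00071 to 0.0413%. At P28 the highest share was 0.137%, in library 3 of P28 WT. There, 9 libraries had 0 embryonic counts, which allows a share of up to 0.00536% in the one with most beta-globin counts and 0.0549% in the one with fewest. These limits cover counting error only. In E10.5-induced ME, Hbb-y was called lower at P28 than at P0 (edgeR adjusted p = 0.0424). That call was lost without library 2 of P0 ME and without each of the 4 P28 E10.5 ME libraries, 5 of the 8 fits that leave out a library. It was also lost without the filter (edgeR adjusted p = 0.108), with limma (adjusted p = 0.113) and with the replicate block (edgeR adjusted p = 0.0941). The size of the difference is not given because 3 of the 4 P28 libraries had 0 counts. Of genes that time globin switching, Lin28b, an RNA-binding protein of fetal blood cells, fell from P0 to P28 by 3.53 ± 0.76, edgeR adjusted p = 0.00593 in wild-type and by 4.27 ± 0.78, edgeR adjusted p = 0.000851 in ME.

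The heme genes differed in how far they followed the globins from P0 to P28, and these are named after their values were seen. In wild-type, Fech, which inserts iron into the porphyrin ring, had 62.4, 329, 235 and 145 CPM at P0 and 58.4, 63.5, 56.3 and 50.9 at P28, and fell by 1.75 ± 0.42, edgeR adjusted p = 0.0126. Slc25a37, mitoferrin, fell by 1.87 ± 0.43, edgeR adjusted p = 0.00829, Cpox, a later enzyme of the pathway, by 1.45 ± 0.41, edgeR adjusted p = 0.032, and Urod, the enzyme before Cpox, by 0.80 ± 0.20, edgeR adjusted p = 0.0109. Slc25a38 fell by 1.25 ± 0.24, edgeR adjusted p = 0.00161. Alad, the enzyme after ALAS, Uros and Ppox were not called, with Alad at -0.54 ± 0.32, edgeR adjusted p = 0.362. The summed level of the 9 heme genes was 354 to 1490 CPM in P0 WT, 412 to 446 in P28 WT, 396 to 416 in P28 E10.5 ME, 361 to 457 in P28 P0 ME and 558 to 681 in RLT Vav Txp. The RLT Vav Txp range lay above those of the other P28 groups.

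Other genes of the pathway were also compared between the ages. Of 17 other membrane genes, 10 were lower at P28 in wild-type and 0 higher (edgeR), against 4.56% and 3.12% of all genes. In ME, 6 were lower and 2 higher, against 8.45% and 9.79% of all genes. Of 18 factor partners, 1 was lower and 2 higher in wild-type, and 0 lower and 5 higher in ME. Lmo2, the bridge between TAL1 and GATA1, rose in both (1.15 ± 0.16, edgeR adjusted p = 4.55e-05 in wild-type and 0.85 ± 0.15, edgeR adjusted p = 0.000512 in ME). Of 10 genes of erythropoietin signalling, 1 was lower and 0 higher in wild-type, and 1 lower and 3 higher in ME. Bcl2l1, a survival gene of this list, fell by 1.52 ± 0.19, edgeR adjusted p = 1.14e-05 in wild-type and by 0.80 ± 0.18, edgeR adjusted p = 0.00341 in ME. Tal1 and Hemgn of the 38 were called in neither comparison of ages. Car1 had 43.9 to 99.1 CPM in P28 WT against 3.54 to 190 in P0 WT and was not called (0.02 ± 0.78, edgeR adjusted p = 0.995), an SE that leaves room for a change in either direction.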

How the data were processed

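The authors deposited raw read counts per gene for 24 libraries. Per the submitters' processing notes, STAR 2.7.9a, Subread and featureCounts 2.0.3 were used with GRCm38. Per the labels, RNA came from a Qiagen RNeasy Plus kit and libraries from a Clontech kit written as SMRTr. Strand use, the annotation release and the handling of reads with several matches are not given in the sources used here. The table held 55774 rows for 55487 gene IDs, and 287 repeat rows were dropped. A GENCODE M21 gene was found for 55227 IDs and all 38 genes.

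Genes were filtered with filterByExpr (minimum count 10), scaled by TMM and fitted by the robust quasi-likelihood method of edgeR 4.0.16 (R 4.3.3) to all 24 libraries, with 1 mean per group and 18 residual degrees of freedom. The heatmap adds 0.1 CPM before the log2. Promoters are those of RefSeq. The floor for a count of 0 is 3 counts. The 38 genes and all lists were chosen with earlier results of these data known. For each comparison the text gives differences for called genes, at most 12 by size, and for Gata1, Klf1, Epor, Tfrc, Alas2, Slc4a1, Hbb-bs and Hbb-y where they bear on it, with at most 4 called genes per list. Kit and Ly6a check the sort. Further genes of the 38 were named after their values were seen. On simulated data for P28 E10.5 ME against P28 WT (22129 genes), the test called 24 of 67 genes changed 2-fold, 42 of 67 changed 4-fold and 58 of 66 changed 8-fold, with 4 of 21929 unchanged genes called.

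Alternatives were RLE factors, no filter, DESeq2 1.42.0, limma 3.58.1 voom with weights by group, a fit of only the groups compared, libraries with a number in their label, a block by that number, and leaving out single libraries. Leaving out both P0 libraries numbered 1 was chosen after seeing the data.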

Additional observations from a re-analysis of the deposited data

Results flagged for a closer look

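For each gene and group of 4 libraries, the gap between the most extreme library and its nearest neighbour was divided by the range of the group on the log2(CPM + 0.1) scale. The gap passed Dixon's critical value at the 95% level in 32 of 218 groups tested, where chance gives about 1 in 20. In P0 WT, library 1 was the low library for Klf1 (0.834), Ermap (0.833), Blvrb (0.913), Tspan33 (0.841), Cldn13 (0.898), Hbb-bs (0.893) and Hbb-bt (0.862). In P0 ME, library 1 was low for Slc4a1 (0.96), Rhag (0.895), Rhd (0.839), Ermap (0.968), Ank1 (0.903), Aqp1 (0.89), Trim10 (0.889), Alas2 (0.88) and Fech (0.875). The ratio of gap to range stands in parentheses.

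In P0 WT, Gata1 stood apart in library 3 at 11.5 CPM against 19.5 to 21.5 in the others (ratio 0.839). In P28 WT, Rhag stood apart in library 1 at 11.2 CPM against 4.5 to 4.7 in the others (ratio 0.952). Alad stood apart in library 1 at 101 CPM against 136 to 142 in the others (ratio 0.873). Urod stood apart in library 4 at 90.3 CPM against 108 to 111 in the others (ratio 0.868). In P28 E10.5 ME, Gata1 stood apart in library 1 at 12.3 CPM against 15.4 to 15.9 in the others (ratio 0.886). Slc4a1 stood apart in library 2 at 8.62 CPM against 2.1 to 2.59 in the others (ratio 0.854). Rhag stood apart in library 1 at 8.88 CPM against 12.0 to 12.7 in the others (ratio 0.852). Ppox stood apart in library 4 at 38.4 CPM against 23.7 to 25.2 in the others (ratio 0.868). Hbb-bs stood apart in library 2 at 177 CPM against 82.2 to 93.4 in the others (ratio 0.832). Hbb-y stood apart in library 3 at 0.0571 CPM against 0.0 in the others (ratio 1.0). This is 4 counts, and any count beside 0 in the others gives that ratio. In P28 P0 ME, Trim10 stood apart in library 3 at 0.36 CPM against 1.14 to 1.17 in the others (ratio 0.978). Slc25a37 stood apart in library 2 at 20.1 CPM against 16.6 to 17.1 in the others (ratio 0.849). Hbb-y stood apart in library 3 at 0.0625 CPM against 0.0 in the others (ratio 1.0). Here too it had 4 counts, and the ratio was fixed by the 0 in the others. In RLT Vav Txp, Nfe2 stood apart in library 2 at 492 CPM against 431 to 438 in the others (ratio 0.875). Fech stood apart in library 1 at 122 CPM against 98.3 to 102 in the others (ratio 0.85). Hbb-y stood apart in library 3 at 0.929 CPM against 0.0 to 0.0292 in the others (ratio 0.89).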

How the results depend on the processing

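Among the 38 genes, no difference followed through the alternatives changed direction, though not every called gene was followed. Called genes named from the lists were not followed through the alternatives. Counts of genes called, of the 38, moved as follows. In P28 E10.5 ME against WT the count of 3 became 5 with limma and 12 with only the groups compared. In P28 P0 ME against WT, 0 became 3 with DESeq2, 1 with limma and 7 with only the groups compared. In RLT Vav Txp against WT, 7 became 15 with DESeq2 and 22 with only the groups compared, and against P28 E10.5 ME, 8 became 5 without the filter, 16 with DESeq2, 13 with limma and 24 with only the groups compared. In P28 P0 ME against P28 E10.5 ME, 0 became 2 with limma and 4 with only the groups compared. With age, 23 became 15 without the filter, 6 with limma and 10 with only the groups compared in WT, and 18 became 28 without both P0 libraries numbered 1 in ME. For the difference of ME effects, 0 became 1 with DESeq2. The cause was not tested. RLE factors moved no count by more than 1.5 times.

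Leaving out 1 library at a time gave 0 to 0 calls in P0 ME against WT, 0 to 3 in P28 E10.5 ME against WT, 0 to 0 in P28 P0 ME against WT and against P28 E10.5 ME, 5 to 7 in RLT Vav Txp against WT and 2 to 6 against P28 E10.5 ME. It gave 14 to 27 with age in WT, 10 to 22 in ME, and 0 to 1 for the difference. The mean embryonic share in P0 ME, 0.194%, ran from 0.0636 to 0.257%.

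Libraries of the same number deviated together (correlation over 0.1) in 14 of 40 pairs, from -0.394 to 0.66. Between P0 WT and P0 ME the correlations were 0.66, 0.0531, 0.371 and 0.464 for numbers 1 to 4, and 6 of these 8 libraries correlated best with their own number, a hint from the data. As no comparison had all its pairs over 0.1, the samples were treated as unpaired. With a replicate block, 17 genes were called with age in WT and 16 in ME, 3 in P28 E10.5 ME against WT, and 0 in the other comparisons of numbered groups. RLT Vav Txp libraries carry no such number and had no block. Depth sets the smallest share of embryonic globin that could be seen, the limit given for a count of 0.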
